A study of Homo sapiens with 12 samples.

Results

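Cells of the human gastric cancer line HGC-27 that carry a TEAD4 knockout label were compared with wild-type (WT) cells of the same line, both after treatment with GLUP. The comparison used 6 of the 12 RNA-seq libraries of the series, namely TEAD4KO GLUP replicates 14, 15 and 16 and WT GLUP replicates 14, 15 and 16. GLUP is a synthetic macrocyclic peptide modelled on the TEAD4-binding motif of the cofactor VGLL4 and made to link TEAD4 molecules. All cells grew in RPMI 1640 medium with serum and glutamine. The other 6 libraries, 3 WT untreated and 3 TEAD4KO untreated, entered the model as a shared estimate of the spread and served as a second set of samples. The labels give no dose or duration, and the study's own sections differ on the duration, so none is printed. How the TEAD4 edit was made, and whether the TEAD4KO cells are 1 clone or a pool, is not given in the sources used here. Nothing in the labels ties the replicates to separate cultures, so every p-value measures the spread between these samples, which may be technical.

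TEAD1 to TEAD4 are DNA-binding factors of the Hippo pathway. They sit on CATTCC elements and recruit the co-activators YAP1 and TAZ (gene WWTR1) when the LATS kinases are off, whereas VGLL4 competes for the same surface. Classical output genes include CCN2 (CTGF), CCN1 (CYR61), ANKRD1 and AMOTL2, and TEAD sites often lie next to AP-1 sites, which bind dimers of FOS and JUN proteins.

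The deposited unit is FPKM, a fragment count divided by transcript length and library total. Of 20345 rows, the 11225 whose mean FPKM across the 12 libraries reached 1 were tested. The rule placed ZCWPW2 (mean 1.00 FPKM) just inside and ARL10 (0.999 FPKM) just outside. A fold change is always on the log2(FPKM + 1) scale, TEAD4KO-labelled minus WT, which understates changes of low genes, and a gene passed at a Benjamini-Hochberg adjusted p under 0.05 in limma. FPKM values do not show the depth, which is unknown, and no counting interval is printed. FPKM totals ran from 375360 to 384480 in WT GLUP libraries and from 401430 to 419590 in TEAD4KO GLUP libraries. Rows at 0 made up 21.4% ± 0.312 (SD, n = 3) and 24.7% ± 0.869 of the table. Both differences gave an exact permutation p of 0.1, the smallest that 3 against 3 allow. TEAD4KO GLUP replicate 16 stood apart from its group. On the first principal component it lay at -5.26, against 14.9 and 16.3 for replicates 14 and 15 and -16.2 to -8.94 for WT GLUP. Its mean correlation with the WT GLUP libraries across genes (r = 0.990) was above that with its own group (r = 0.986), where genes are not independent replicates. Results that rest on it are given without it as well. Of 5 epithelial markers, EPCAM, KRT18 and KRT19 were at or near 0, whereas KRT8 (3.78 to 9.13 FPKM) and CDH1 (2.04 to 3.68 FPKM) were present in all 12 libraries. The stomach markers TFF1, TFF2 and GKN1 were at 0 in each. All 4 fibroblast markers were present in all 12 libraries. In the WT and TEAD4KO GLUP libraries COL1A1 averaged 258 and 206 FPKM, DCN 63.4 and 68.0, LUM 57.7 and 60.5 and COL1A2 7.99 and 7.26. Of these 4 markers 0 passed. Of 5 mesenchymal markers, CDH2 was near 0 (at most 0.149 FPKM). VIM, a filament gene, averaged 1276 and 1544 FPKM in the WT and TEAD4KO GLUP libraries, and ZEB1 averaged 19.9 and 21.4 FPKM. FN1 (7.88 and 5.35 FPKM) and SNAI2 (16.2 and 14.8 FPKM) went the other way. Of the 4 tested mesenchymal markers 0 passed.

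Of the 4 TEAD genes, 1 passed as higher and 1 as lower under GLUP (4.91% and 0.935% of all rows), and 2 as lower and 0 as higher in untreated libraries. The labelled target TEAD4 (ENSG00000197905) lies on the plus strand of GRCh37 chromosome 12, from 3068496 to 3149842. Its level was 23.7, 22.9 and 23.8 FPKM in WT GLUP libraries and 27.8, 29.4 and 26.0 FPKM in TEAD4KO GLUP libraries. Every TEAD4KO GLUP library was thus above every WT GLUP library. The TEAD4 level does not bear out the label, and these samples are called the libraries labelled TEAD4KO throughout. A gene-level FPKM does not show whether a transcript is edited. The log2 fold change was 0.23 ± 0.06 (SE, adjusted p = 0.0479), and 0.17 in untreated libraries (adjusted p = 0.135). The call was lost in 8 of 12 fits that each left out 1 library (highest adjusted p = 0.177, without TEAD4KO GLUP replicate 15), with the replicate number as a block (0.0516) and after correction of each library for transcript length and GC content (log2 fold change 0.11, adjusted p = 0.271).

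TEAD2 moved the other way. It was at 14.2, 13.9 and 14.5 FPKM in WT GLUP libraries and at 10.8, 9.23 and 10.5 FPKM in those labelled TEAD4KO. The groups did not overlap, and the log2 fold change was -0.45 ± 0.09 (adjusted p = 0.0125). It stayed past the threshold after the length and GC correction (adjusted p = 0.00845) and with the block (0.00972). Leaving out WT GLUP replicate 14 or 16 or TEAD4KO GLUP replicate 15 ended the call (highest adjusted p = 0.0659, without WT GLUP replicate 16). In untreated libraries TEAD2 was lower as well, by a log2 fold change of -0.50 (adjusted p = 0.0083). TEAD1, with a log2 fold change of -0.19 (adjusted p = 0.222, but -0.33 and 0.0482 in untreated libraries), and TEAD3, at 0.02 (0.909), did not pass. Among the partners, YAP1 was at -0.09 (adjusted p = 0.732), WWTR1 at 0.11 (0.427) and VGLL4 at 0.13 (0.334), and their groups overlapped.

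**Figure D1:**
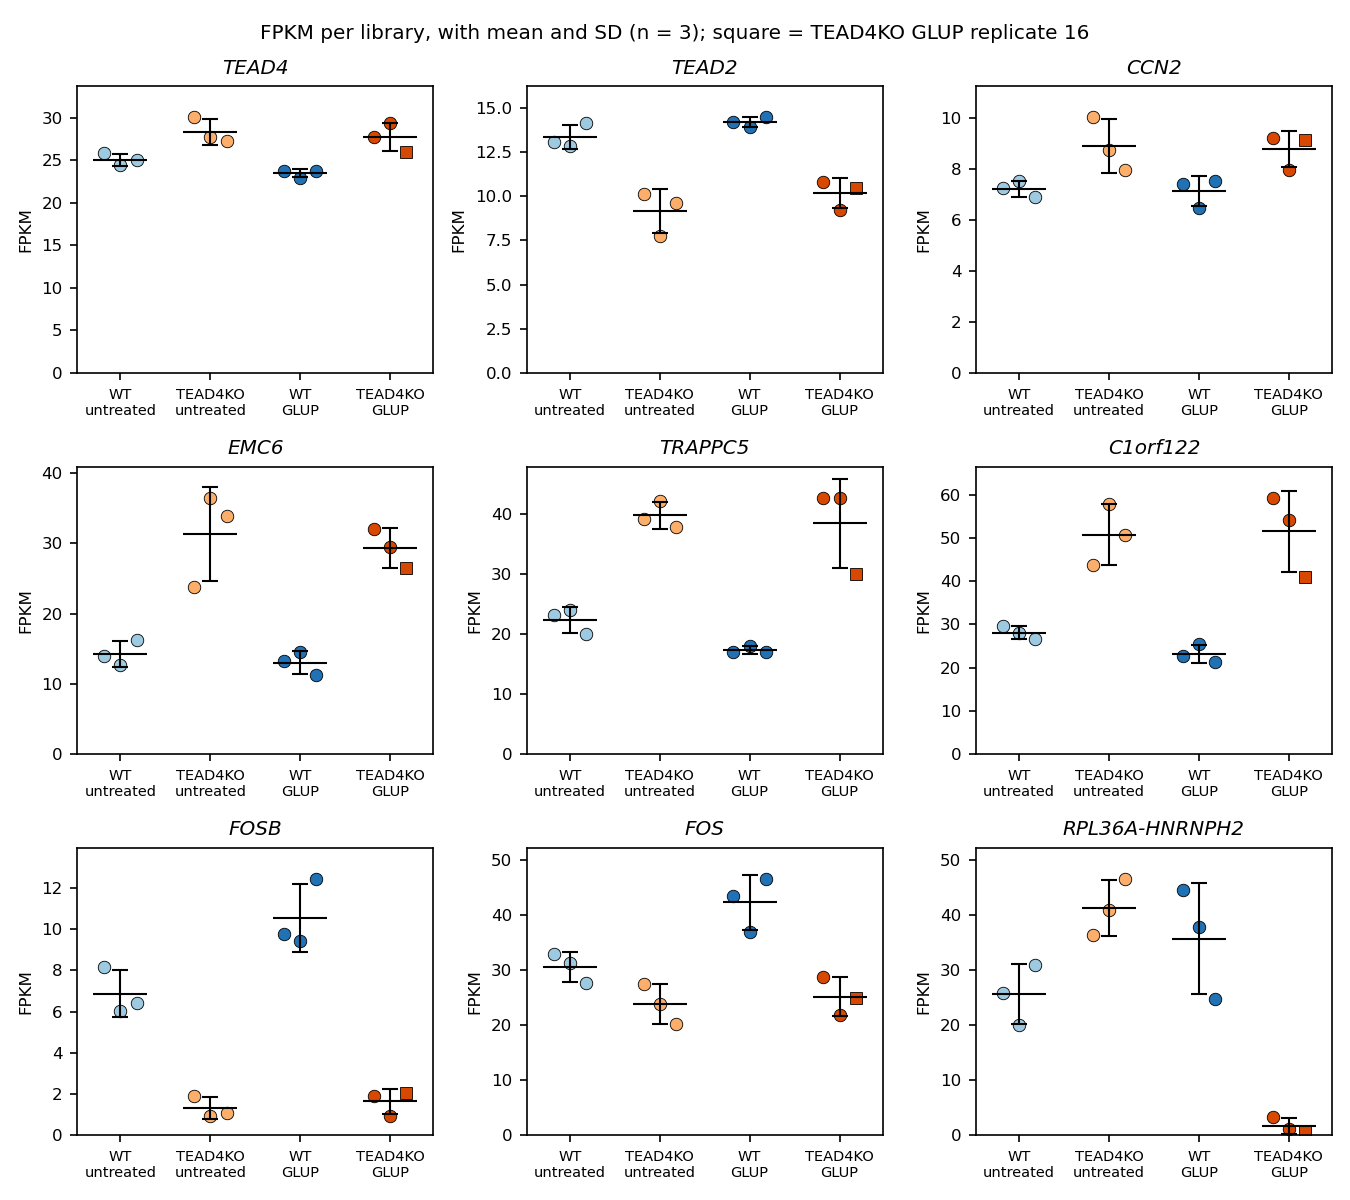
FPKM of 9 genes in each of the 12 libraries, grouped by label and treatment, with 1 point per library, the mean as a horizontal bar and the SD as whiskers (n = 3), and axes that start at 0. TEAD4 is slightly higher and TEAD2 lower in the libraries labelled TEAD4KO. FOSB averages 10.5 FPKM in WT GLUP and 1.63 FPKM in TEAD4KO GLUP libraries, and it is lower in the untreated libraries labelled TEAD4KO as well. RPL36A-HNRNPH2 is low only in the 3 TEAD4KO GLUP libraries among these 12. The square marks TEAD4KO GLUP replicate 16.

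Of 21 tested genes known as YAP, TAZ and TEAD targets, 5 passed as higher (AMOTL2, FJX1, IGFBP3, FOXF2 and ANKRD1) and 0 as lower. That is 23.8% of the list against 5.84% of all rows that passed in either direction. The median log2 fold change of the list was -0.01, and 10 members lay above 0 and 11 below. The median over all tested rows was -0.0039. The median turned to 0.03 under quantile normalization and to 0.09 after the length and GC correction. No list member passed without TEAD4KO GLUP replicate 14 or 15, and 5 passed as higher and 4 as lower without replicate 16, where 7.34% of all rows passed as lower.

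AMOTL2, an angiomotin-family scaffold that restrains YAP, was at 15.5, 15.3 and 15.3 FPKM in WT GLUP libraries and at 19.7, 19.5 and 18.3 FPKM in those labelled TEAD4KO (log2 fold change 0.30 ± 0.06, adjusted p = 0.0119). IGFBP3, a secreted binder of insulin-like growth factors, was at 113, 126 and 152 FPKM and at 187, 183 and 163 FPKM (0.45 ± 0.11, adjusted p = 0.0248). These groups did not overlap, and both genes also passed after the length and GC correction (adjusted p = 0.0271 and 0.0417). FJX1 (adjusted p = 0.0145), a Golgi kinase-related gene of the planar polarity pathway, FOXF2 (0.0349), a forkhead factor, and ANKRD1 (0.0383), a muscle ankyrin repeat protein, did not pass after it (adjusted p = 0.0685, 0.162 and 0.078). Leave-one-out fits lost AMOTL2 in 3 of 12, IGFBP3 and FJX1 in 4 and FOXF2 in 7, with the highest adjusted p of 0.17 for FOXF2 without WT GLUP replicate 16. The naming rule does not reach ANKRD1, which was picked with its values known.

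CCN2 and CCN1, the 2 best-known outputs of YAP and TEAD, did not pass. CCN2 was at 7.42, 6.47 and 7.55 FPKM in WT GLUP libraries and at 9.23, 7.98 and 9.17 FPKM in those labelled TEAD4KO (log2 fold change 0.27 ± 0.09, adjusted p = 0.11). The groups did not overlap, as was the case for 29.5% of all tested rows. CCN1 was at 24.4, 22.7 and 26.6 FPKM and at 29.6, 26.3 and 28.5 FPKM, with overlapping groups (0.19 ± 0.08, adjusted p = 0.183). AXL, a receptor tyrosine kinase, had a log2 fold change of -0.11 (adjusted p = 0.535) and CCNA2, cyclin A2, of 0.18 (0.215). CGB5, a subunit gene of chorionic gonadotropin, was too low to test, at 0, 0.136 and 0.401 FPKM in the TEAD4KO GLUP libraries and at 0.0126, 0.0332 and 0.0331 FPKM in WT GLUP. Of 21 genes of the Hippo kinase core and its upstream regulators, AMOTL2 alone passed (4.76%, against 5.84% of all rows). Of the list 18 lay below 0, 5 of them at an unadjusted p under 0.05, which 2679 of all 11225 rows reached in either direction. The list had a median transcript length of 6366 bases, against 3344 for all rows. After the length and GC correction 11 members lay above 0 and 10 below, with a median of 0.0051. Without TEAD4KO GLUP replicate 16, 4 passed as lower, where 7.34% of all rows did. LATS1 had a log2 fold change of -0.38 (adjusted p = 0.0599, and 0.024 with the block).

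Across all rows, 656 of 11225 genes (5.84%) passed under GLUP, 551 higher (4.91%) and 105 lower (0.935%) in the libraries labelled TEAD4KO. Higher calls were thus 84% of the total, a share that was 73% under median-ratio scaling and 63% under quantile normalization. Most differences were small, with a median absolute log2 fold change of 0.41 among the genes that passed and 96 beyond 1.5-fold. A block on the replicate number gave 1064 genes past the threshold (9.48%), 639 of them shared in direction with the 656. The count was 196 without WT GLUP replicate 16 and 1952 without TEAD4KO GLUP replicate 16.

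A fold change over 2 together with the adjusted p left 6 genes (0.0535%), of which 4 were higher and 2 lower. Their number was 17 with a pseudocount of 0.1, 14 with array weights, 10 with the block or without WT GLUP replicate 15, and 26 without TEAD4KO GLUP replicate 16. It was 5 with a filter at a mean of 5 FPKM or with rows summed per symbol, and 4 after the length and GC correction. EMC6 (chromosome 17, 3572106 to 3572962) is a subunit of the complex that inserts membrane proteins into the endoplasmic reticulum and was at 13.2, 14.6 and 11.3 FPKM in WT GLUP libraries and at 32.1, 29.4 and 26.4 FPKM in those labelled TEAD4KO (log2 fold change 1.11 ± 0.14, adjusted p = 0.00127). TRAPPC5 (chromosome 19, 7745719 to 7752589), a core subunit of the TRAPP tethering complexes of secretory traffic, was at 17.0, 18.1 and 17.0 FPKM and at 42.6, 42.7 and 29.9 FPKM (1.08 ± 0.12, adjusted p = 0.000482). C1orf122 (chromosome 1, 38272651 to 38275126) was at 22.6, 25.4 and 21.3 FPKM and at 59.3, 54.3 and 41.1 FPKM (1.11 ± 0.12, adjusted p = 0.000625). All 3 genes lie on the plus strand. In all 3 genes TEAD4KO GLUP replicate 16 was the lowest of its group and still above every WT GLUP library. All 3 passed the adjusted p in each of the 12 leave-one-out fits and after the length and GC correction. Each was also higher in the untreated libraries labelled TEAD4KO, by log2 fold changes of 1.07, 0.81 and 0.82.

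GTPBP6, a GTPase of mitochondrial ribosome assembly, was the fourth gene called higher, at 1.07, 2.37 and 1.08 FPKM in WT GLUP libraries and 5.49, 5.72 and 4.11 FPKM in those labelled TEAD4KO (1.31 ± 0.23, adjusted p = 0.00515). It lies in the pseudoautosomal region and has a second row in the table. Summed over both rows it was at 8.73 ± 0.394 (SD, n = 3) and 11.4 ± 0.375 FPKM, and the log2 fold change fell to 0.34 ± 0.07 (adjusted p = 0.0139), which passes the adjusted p and not the fold.

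**Figure D2:**
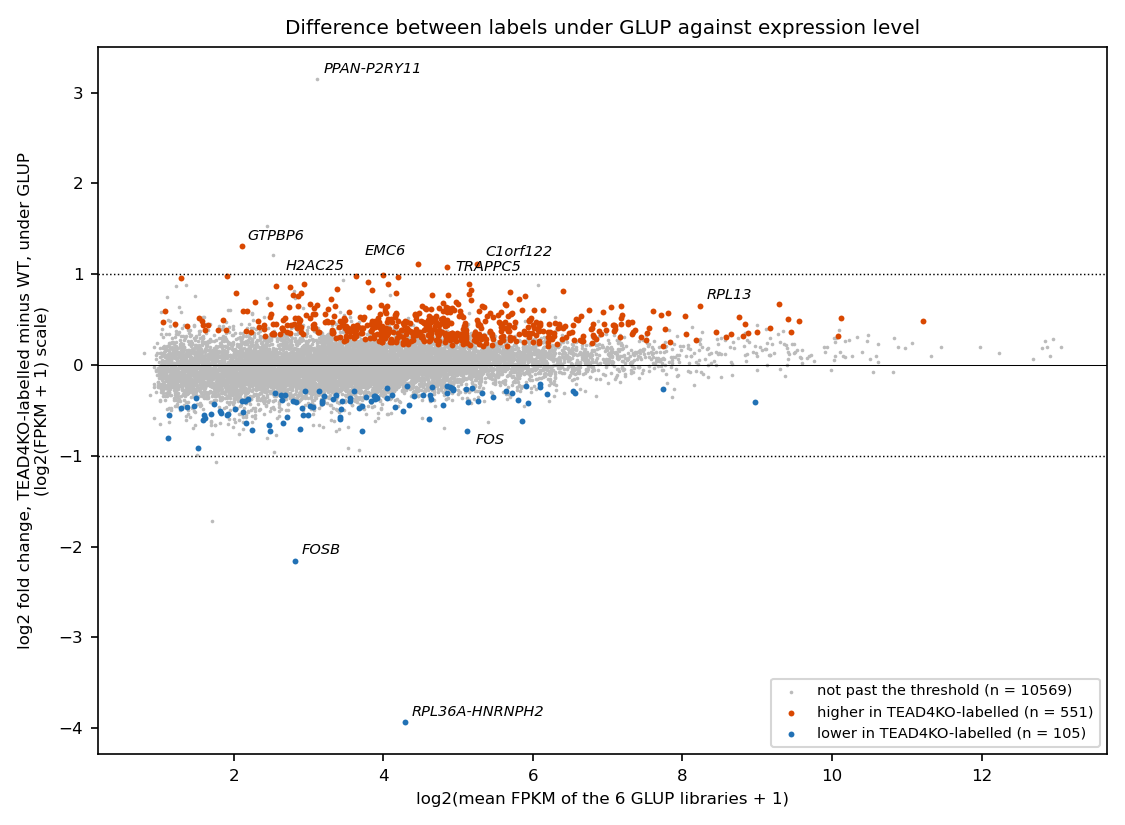
Log2 fold change under GLUP, TEAD4KO-labelled minus WT, against the log2 mean FPKM of the 6 GLUP libraries for 11225 tested rows, with 551 genes past the adjusted p as higher in orange and 105 as lower in blue. Dotted lines mark a fold change of 2, beyond which 6 coloured genes lie; PPAN-P2RY11, the highest grey point, was not past the threshold.

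FOSB had the most negative log2 fold change of any single-gene locus that passed. It encodes an AP-1 subunit that is induced within minutes by growth factor signals, on chromosome 19 from 45971253 to 45978437, plus strand. Its level was 9.77, 9.42 and 12.5 FPKM in WT GLUP libraries and 1.92, 0.910 and 2.06 FPKM in those labelled TEAD4KO. No library of one group came near the other, and the log2 fold change was -2.16 ± 0.19 (adjusted p = 0.000155). The call held in all 12 leave-one-out fits, with the highest adjusted p of 0.00177, after the length and GC correction (5.19e-05) and with the block (1.23e-05). The difference was there in untreated libraries too (log2 fold change -1.79, adjusted p = 0.000835).

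FOS, the founding member of the family (plus strand of chromosome 14, 75745529 to 75748933), was at 43.5, 36.8 and 46.6 FPKM in WT GLUP libraries and at 28.8, 21.8 and 24.9 FPKM in those labelled TEAD4KO. The groups did not overlap (log2 fold change -0.73 ± 0.12, adjusted p = 0.00471), and the call held in all 12 leave-one-out fits. In untreated libraries the log2 fold change was -0.36 (adjusted p = 0.108), and the difference between the treatments did not pass (adjusted p of the interaction 1.00). Among 25 tested immediate early genes, 3 were lower (FOSB, FOS and KLF4) and 3 higher (JUNB, JUND and IER3), with a list median of -0.01. That is 24% of the list in either direction, against 5.84% of all rows. KLF4, a zinc finger factor, was at 3.79, 4.17 and 4.40 FPKM in WT GLUP libraries and at 2.70, 2.25 and 2.82 FPKM in those labelled TEAD4KO (-0.51 ± 0.09, adjusted p = 0.00515). JUNB and JUND, which pair with FOS proteins, were higher, JUNB from 48.9, 52.0 and 49.1 to 75.0, 69.3 and 68.8 FPKM (0.50 ± 0.07, adjusted p = 0.00186) and JUND by 0.60 ± 0.09 (adjusted p = 0.00286). Both also passed in all 12 leave-one-out fits and after the length and GC correction (adjusted p = 0.0228 and 0.0294). Other members did not pass, among them JUN (log2 fold change -0.16, adjusted p = 0.384), EGR1 (-0.23, 0.388), FOSL1 (0.40, 0.172) and FOSL2 (-0.06, 0.758). KLF4, IER3 and these last 4 lie outside the naming rule and were picked with their values known. Of 10 ERK feedback genes 0 passed at adjusted p in limma, and 1 had an unadjusted p under 0.05, which 2679 of all 11225 rows reached.

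Promoters are shown for FOSB and FOS, which were lower, and for CCN2, whose TEAD elements are the textbook case. Each is the 250 bases before the transcription start in RefSeq on GRCh38.p14 (FOSB chr19:45467746-45467995, plus strand; FOS chr14:75278578-75278827, plus strand; CCN2 chr6:131951373-131951622, minus strand), written 5′ to 3′ in the direction of transcription, with matches in capitals.
FOSB: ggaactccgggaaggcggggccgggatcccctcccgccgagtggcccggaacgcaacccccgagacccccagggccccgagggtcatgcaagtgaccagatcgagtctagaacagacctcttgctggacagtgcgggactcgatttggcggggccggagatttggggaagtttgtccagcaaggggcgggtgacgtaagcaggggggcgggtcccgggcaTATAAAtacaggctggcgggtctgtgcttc
FOS: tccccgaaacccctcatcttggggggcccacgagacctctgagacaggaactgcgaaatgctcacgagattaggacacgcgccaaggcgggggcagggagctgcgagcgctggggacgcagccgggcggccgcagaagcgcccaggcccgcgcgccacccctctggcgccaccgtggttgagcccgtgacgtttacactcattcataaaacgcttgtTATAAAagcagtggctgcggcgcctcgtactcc
CCN2: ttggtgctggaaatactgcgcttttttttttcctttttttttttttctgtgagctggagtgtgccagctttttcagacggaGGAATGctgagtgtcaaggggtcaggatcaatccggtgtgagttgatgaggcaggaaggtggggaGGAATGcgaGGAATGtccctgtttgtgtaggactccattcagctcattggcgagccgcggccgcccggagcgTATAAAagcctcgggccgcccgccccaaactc
Capitals mark the letters of a TEAD element (CATTCC or GGAATG), an AP-1 element (TGACTCA or TGAGTCA), a cAMP response element (TGACGTCA), each searched on both strands, or a TATA box (TATAAA, forward strand, added after the values were seen). CCN2 holds GGAATG at -169, -104 and -95 and TATAAA at -32 from the start. FOSB and FOS hold TATAAA at -30 and -33 and none of the other letters in this window. Only whole matches were counted, here and in the shares below, so partial or altered elements are not marked. Both promoters hold TGACGT, the start of the cAMP element, without its last letters. Among promoters of genes that were higher, 8.33% (37 of 444) held a TEAD element, and among those that were lower 4.65% (4 of 86). The share was 9.20% of 9034 tested rows with a promoter in the table and 11.9% of all 27305 promoters. AP-1 letters were in 2.25% of the higher, 0 of 86 lower and 2.20% of tested promoters, and the cAMP element in 4.95%, 0 of 86 and 3.14%. TATAAA was in 5.18%, 9.30% and 3.17%. A match of letters describes the sequence and is not evidence of binding.

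RPL36A-HNRNPH2 had the most negative log2 fold change of all rows. This row is a read-through locus on chromosome X (100645999 to 100667285, plus strand) that spans RPL36A, a ribosomal protein gene, and HNRNPH2, a splicing factor gene, and shares exons with both, so its reads are uncertain. It was at 44.6, 37.9 and 24.7 FPKM in WT GLUP libraries and at 3.21, 1.04 and 0.492 FPKM in those labelled TEAD4KO (log2 fold change -3.93 ± 0.30, adjusted p = 7.0e-05). In untreated libraries it was at 25.8, 20.0 and 31.0 FPKM in WT and at 36.3, 40.9 and 46.6 FPKM in those labelled TEAD4KO. The groups did not overlap in either treatment and were in opposite order, although the untreated difference did not pass (log2 fold change 0.68, adjusted p = 0.211). The interaction was -4.62 ± 0.43 (adjusted p = 0.000685), and of 11225 rows it was the single one that passed (0.00891%), with 284 rows under an unadjusted p of 0.05. The rows of RPL36A (log2 fold change 0.27, adjusted p = 0.139) and HNRNPH2 (0.25, 0.0967) did not pass under GLUP, although RPL36A passed with the block (0.0199) and HNRNPH2 without TEAD4KO GLUP replicate 16 (0.0268). PPAN-P2RY11, another read-through row, showed the highest log2 fold change, 3.15 ± 1.03, but ranged from 1.02 to 25.5 FPKM among the libraries labelled TEAD4KO and did not pass (adjusted p = 0.0885, and 0.0241 with the block). These last 3 rows were picked with their values known.

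The other genes with the largest falls each lost the call in some leave-one-out fits. ATAT1, the alpha-tubulin acetyltransferase, was at 4.41, 4.64 and 5.60 FPKM in WT GLUP libraries and at 2.18, 2.13 and 3.56 FPKM in those labelled TEAD4KO (log2 fold change -0.72 ± 0.15, adjusted p = 0.0163). TTLL3, a tubulin glycylase, had a log2 fold change of -0.73 (adjusted p = 0.0492), SLC25A16, a mitochondrial carrier, of -0.73 (0.027), HDAC10, a polyamine deacetylase, of -0.66 (0.0447), AGAP4, an ArfGAP with close copies, of -0.64 (0.0162) and ABCG1, a sterol exporter, of -0.64 (0.0104). All 6 had groups that did not overlap, as the naming rule required, and all passed after the length and GC correction and with the block. Leave-one-out fits lost ABCG1 in 1 of 12 (adjusted p = 0.066, without WT GLUP replicate 16), ATAT1 in 3, AGAP4 in 4, SLC25A16 in 5, TTLL3 in 8 and HDAC10 in 9, where the last 2 reached adjusted p of 0.206 and 0.187 without the same library. In untreated libraries their log2 fold changes lay from -0.20 to 0.15 and none passed, but none of the 6 interactions passed either. CD99, a surface glycoprotein, was lower on its chromosome X row (-0.70 ± 0.19, adjusted p = 0.0492, lost in 9 of 12 leave-one-out fits with up to 0.185 without WT GLUP replicate 16) and the only gene of the 656 that passed in the opposite direction in untreated libraries (0.79, adjusted p = 0.0313). It too has a second pseudoautosomal row, and summed over both it was at 31.1 ± 0.832 (SD, n = 3) and 31.3 ± 2.37 FPKM under GLUP.

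The largest rises beyond the 4 called genes were just under 2-fold. SCAND1, a SCAN-domain gene, was at 11.5 ± 0.672 FPKM (SD, n = 3) in WT GLUP libraries and at 24.8, 23.7 and 21.6 FPKM in those labelled TEAD4KO (log2 fold change 0.97 ± 0.10, adjusted p = 0.000417). TPGS1, a subunit of the tubulin polyglutamylase complex, was at 9.65, 10.6 and 8.76 FPKM and at 19.9, 23.1 and 17.8 FPKM (0.99 ± 0.10, adjusted p = 0.000427). H2AC25, an H2A histone, went from 7.02, 7.91 and 7.14 to 14.1, 19.5 and 13.3 FPKM (0.98 ± 0.14, adjusted p = 0.00213). In each, the lowest library labelled TEAD4KO was well above the highest WT GLUP library. RPRML, a Reprimo-like gene, rose by a log2 fold change of 0.98 (adjusted p = 0.00286) and FMC1, an assembly factor of the mitochondrial ATP synthase, by 0.90 (0.00379). These 5 passed in all 12 leave-one-out fits and after the length and GC correction. MAN1B1-DT, a divergent noncoding transcript, had 0.96 (adjusted p = 0.0359) and was lost after that correction (0.0757) and in 5 of 12 leave-one-out fits, with the highest adjusted p of 0.149 without TEAD4KO GLUP replicate 14.

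Calls followed transcript length and GC content. The genes that were higher had a median transcript length of 1492 bases and 59.8% GC, and those that were lower 4483 bases and 48.3% GC, against 3344 bases and 48.2% for all 11077 tested rows with reference values. When genes were split by length into 5 bins of nearly equal size, 332 of the 2216 shortest passed as higher and 0.316% as lower, whereas 0.451% of the longest passed as higher and 1.67% as lower. In the bin with the highest GC content, 13.9% passed as higher. Across genes, which are not independent replicates and share libraries, Spearman's rho of the log2 fold change was -0.478 with length and 0.198 with GC content. After removal of both trends from every library, these were -0.0215 and 0.0113. After the correction 426 genes passed (3.8%), 290 higher (2.58%) and 136 lower (1.21%), and 302 were shared in direction with the uncorrected 656, which is 46.0% of the uncorrected and 70.9% of the corrected list. The trend was uneven among libraries of the same label. Spearman's rho of a library's deviation with length was 0.34 to 0.47 in WT GLUP libraries, and -0.39, -0.37 and 0.16 in TEAD4KO GLUP replicates 14, 15 and 16. With GC content it was -0.33 to -0.15 and 0.20, -0.11 and 0.17. The part of these trends in single calls was not tested.

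**Figure D3:**
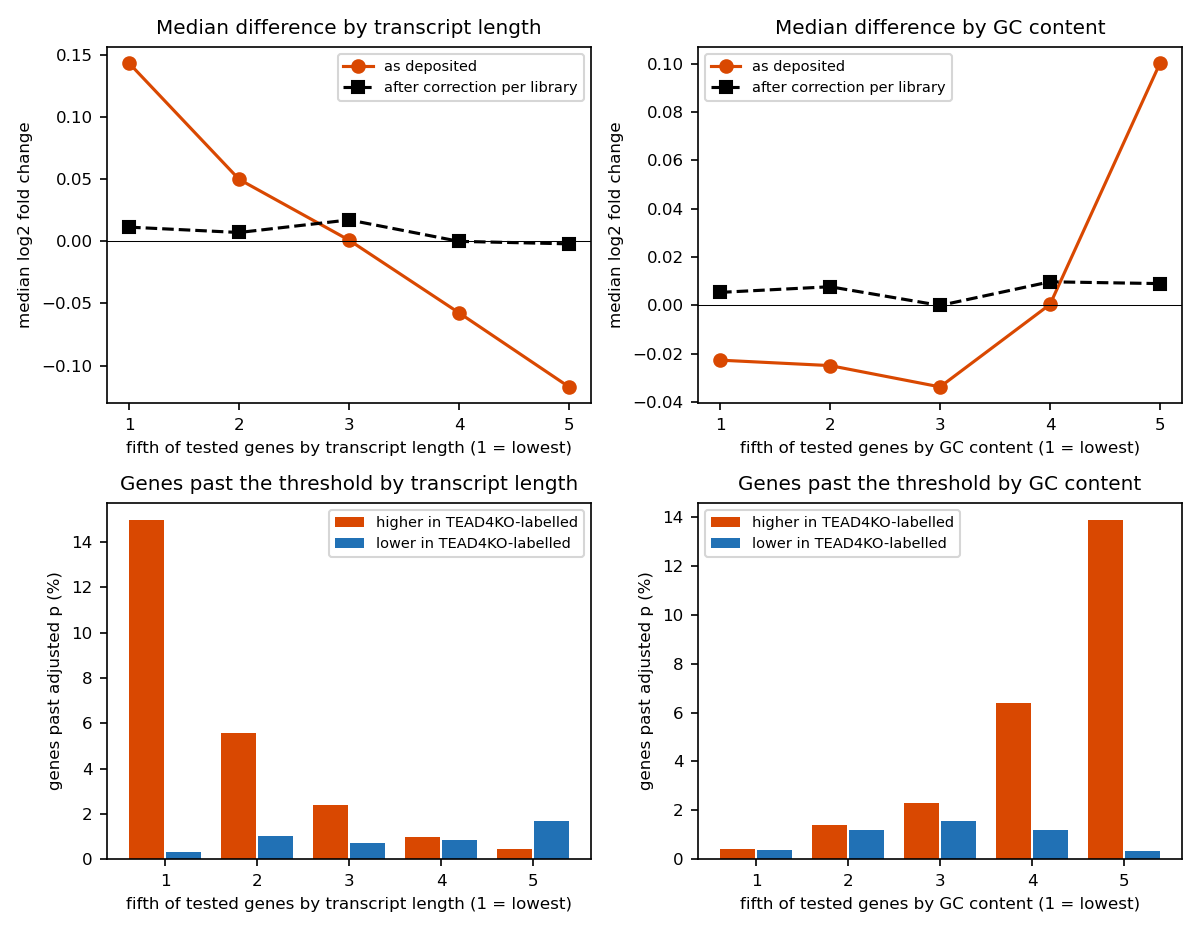
Upper panels show the median log2 fold change under GLUP in 5 bins of the tested genes by transcript length (left) and GC content (right), as deposited in orange and after correction of each library in black. Lower panels show the percent of each bin past the adjusted p, higher in orange and lower in blue; 332 of the 2216 shortest genes are higher, against 0.451% of the longest.

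Of 85 tested cytosolic ribosomal protein genes 15 passed, all higher (17.6%, against 4.91% of all rows), and 79 lay above 0, with a median log2 fold change of 0.20. Their summed level was 45356, 46586 and 42135 FPKM in WT GLUP libraries and 55208, 56861 and 47034 FPKM in those labelled TEAD4KO. The groups did not overlap, and TEAD4KO GLUP replicate 16 lay closer to the WT GLUP libraries than to its own group. RPL13, a subunit of the large ribosome, was at 238, 243 and 220 FPKM and at 386, 396 and 327 FPKM (0.65 ± 0.09, adjusted p = 0.00217), and RPS15, of the small one, had 0.67 ± 0.12 (adjusted p = 0.0051). Both passed in all 12 leave-one-out fits and after the length and GC correction. These families have many processed pseudogenes that share reads, so single members are uncertain. The median of the list was 0.0073 under quantile normalization and 0.08 after the length and GC correction, with 7 members past the threshold there, 32 with the block, 4 without WT GLUP replicate 16 and 41 without TEAD4KO GLUP replicate 16.

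Of 76 mitochondrial ribosomal protein genes 11 passed, all higher (14.5%, against 4.91% of all rows), with a median of 0.19. They were led by MRPL34 (34.1, 33.0 and 32.5 against 48.1, 49.7 and 47.8 FPKM, log2 fold change 0.54 ± 0.06, adjusted p = 0.000659). Of 80 nuclear genes of oxidative phosphorylation 11 passed, all higher (13.8%), with a median of 0.15, among them ATP5F1D of the ATP synthase (0.61, adjusted p = 0.00518) and CYC1, cytochrome c1 (0.45, adjusted p = 0.0077). MRPL34 kept its call after the length and GC correction (adjusted p = 0.00552), and ATP5F1D and CYC1 did not (0.103 and 0.0788). After it, 3 mitochondrial ribosomal genes passed as higher, and 6 respiratory genes as higher and 1 as lower. With the block the counts were 20 and 19, and over leave-one-out fits they ran from 3 to 35 and from 2 to 30, lowest without WT GLUP replicate 16 and highest without TEAD4KO GLUP replicate 16. Of the 13 genes that mitochondria encode themselves, 0 passed at adjusted p in limma, with 5 below an unadjusted p of 0.05. That level was reached by 2679 of all 11225 rows. Of 30 proteasome genes, PSMA7 (0.45, adjusted p = 0.0153) and PSMB4 (0.35, 0.0458) passed (6.67%, against 5.84% of all rows), and 28 lay above 0. PSMB4 did not pass after the length and GC correction (0.0876). No proteasome gene passed without WT GLUP replicate 14 or 16 or TEAD4KO GLUP replicate 14 or 15. Without TEAD4KO GLUP replicate 16, 12 passed as higher, where 10% of all rows did.

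Replication-dependent histone genes, whose mRNAs end in a stem-loop instead of a poly(A) tail, had a list median of 0.37. Of 17 tested, 5 passed, all higher (29.4%, against 4.91% of all rows), and 15 lay above 0. H2BC5 was at 6.57, 4.79 and 8.21 FPKM in WT GLUP libraries and averaged 11.3 ± 0.785 FPKM (SD, n = 3) in those labelled TEAD4KO (log2 fold change 0.73 ± 0.15, adjusted p = 0.0108). Summed over the list, the level was 119 to 128 FPKM in WT GLUP libraries and 162 to 185 FPKM in those labelled TEAD4KO. After the length and GC correction the median was 0.16, and H2AC25 alone passed. The list had 2 to 7 calls over the leave-one-out fits and 8 with the block. Histone genes are near-identical copies that share reads. Of 36 S phase genes, TYMS (thymidylate synthase, 0.26, adjusted p = 0.0141) and RFC2 (0.21, 0.0492) passed (5.56%, against 5.84% of all rows). Of 33 mitotic genes, BIRC5 (survivin, 0.28, 0.0408) passed (3.03%). TYMS alone among these 3 genes passed after the length and GC correction (0.0307), and none of the 3 passed without WT GLUP replicate 16.

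**Figure D4:**
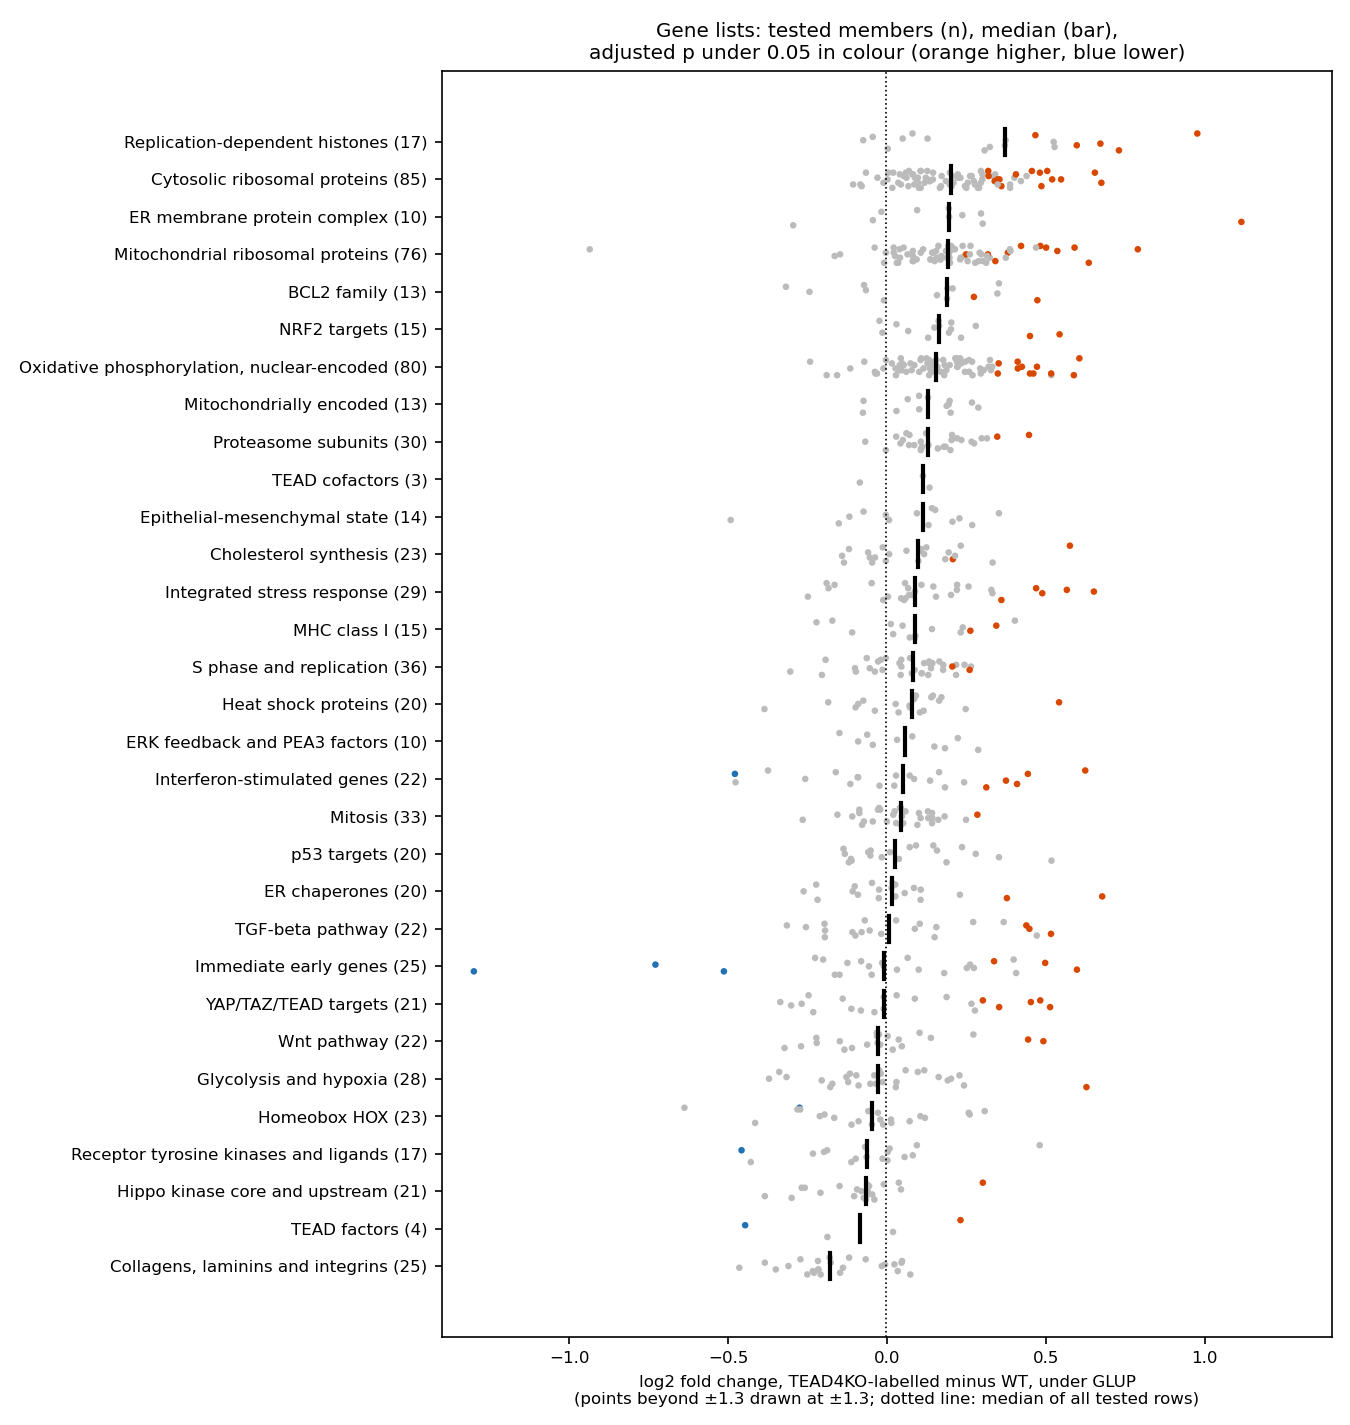
Log2 fold change under GLUP of every tested member of 31 gene lists, 1 point per gene, sorted by the list median (black bar), with genes past the adjusted p in orange (higher) or blue (lower) and the number tested in parentheses. Histone, ribosomal and mitochondrial lists sit to the right of the dotted line at the median of all tested rows, and collagens, laminins and integrins to the left at -0.18; no set test was run.

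Stress and signalling genes gave scattered calls. In the integrated stress response, the program downstream of ATF4, 5 of 29 genes were higher (17.2%, against 4.91% of all rows), with a list median of 0.09. The count ran from 3 to 10 over the leave-one-out fits, with 10 higher and 1 lower without TEAD4KO GLUP replicate 16. TRIB3, a pseudokinase target of ATF4, was at 6.65, 6.67 and 6.18 FPKM in WT GLUP libraries and at 10.5, 10.2 and 9.64 FPKM in those labelled TEAD4KO (log2 fold change 0.57 ± 0.07, adjusted p = 0.00127). CEBPB, a leucine zipper factor, was at 11.2, 12.4 and 11.8 FPKM and at 21.1, 20.0 and 16.5 FPKM (0.65 ± 0.11, adjusted p = 0.00519). Neither pair of groups overlapped. TRIB3, CEBPB and SLC3A2, the heavy chain of amino acid transporters (0.36, adjusted p = 0.00571), passed in all 12 leave-one-out fits and after the length and GC correction, and DDIT3 (0.49, 0.0416) and FGF21 (0.47, 0.0476) did not pass after it (0.13 and 0.113). DDIT3 was lost in 7 of 12 leave-one-out fits (up to 0.146, without WT GLUP replicate 15). ATF4 itself had a log2 fold change of 0.33 (adjusted p = 0.0814). FGF21 and ATF4 were picked with their values known.

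In the TGF-beta pathway 3 of 22 genes were higher (13.6%, against 4.91% of all rows). The BMP target ID1, a dominant inhibitor of basic helix-loop-helix factors, was at 114, 124 and 117 FPKM in WT GLUP libraries and at 179, 164 and 168 FPKM in those labelled TEAD4KO (log2 fold change 0.52 ± 0.07, adjusted p = 0.00127). Its relative ID3 (0.45, adjusted p = 0.00277) and the ligand BMP4 (0.44, 0.00286) were higher as well. In the Wnt pathway 2 of 22 genes were higher (9.09%), the receptor FZD2 (0.49, adjusted p = 0.00339) and the secreted inhibitor DKK1 (0.44, 0.0089). These 5 passed in all 12 leave-one-out fits and after the length and GC correction, and each was also higher past the threshold in untreated libraries. The list medians were 0.0052 and -0.03, close to that of all rows.

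Of 22 interferon-stimulated genes 5 were higher and STAT2, a subunit of the interferon transcription complex, was lower (log2 fold change -0.48, adjusted p = 0.0446), against 4.91% and 0.935% of all rows. ISG15, a ubiquitin-like modifier, was at 5.46, 5.81 and 5.68 FPKM in WT GLUP libraries and at 9.36, 8.90 and 9.47 FPKM in those labelled TEAD4KO (0.62 ± 0.10, adjusted p = 0.00339). The restriction factors IFITM1, IFITM2 and IFITM3, short genes that resemble each other, had 0.44, 0.37 and 0.31 (adjusted p = 0.0145, 0.00942 and 0.0295), and IFI6 had 0.41 (0.0373). After the length and GC correction IFITM2 (adjusted p = 0.0367) and STAT2 (0.0481) passed and the other 4 did not. No member passed as lower in 8 of 12 leave-one-out fits, those without any 1 of the WT untreated or WT GLUP libraries or TEAD4KO GLUP replicate 14 or 15, and 3 did without TEAD4KO GLUP replicate 16. The number higher ran from 1 to 5 over these fits, lowest without WT GLUP replicate 14 or 16 or TEAD4KO GLUP replicate 14. RFXANK, a subunit of the RFX transcription complex, was higher (0.26, adjusted p = 0.0292), a call that was lost after the correction (0.296) and in 4 of 12 leave-one-out fits (up to 0.147, without WT GLUP replicate 16). IFI6 and STAT2 were picked with their values known.

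Several other lists held 1 or 2 calls. ADM, adrenomedullin, was at 19.4, 20.2 and 20.9 FPKM in WT GLUP libraries and at 30.8, 30.1 and 34.3 FPKM in those labelled TEAD4KO (log2 fold change 0.63 ± 0.07, adjusted p = 0.000625). It was the single call among 28 hypoxia and glycolysis genes (3.57%, against 5.84% of all rows). HMOX1, heme oxygenase, was at 16.9, 16.2 and 16.8 FPKM and at 26.0, 24.6 and 23.4 FPKM (0.54 ± 0.08, adjusted p = 0.00329). It was among 2 of 15 NRF2 target genes that passed, both higher (13.3%, against 5.84% of all rows). Of that list 13 lay above 0, with a median of 0.16. SDF2L1, a chaperone cofactor of the endoplasmic reticulum, had 0.68 (adjusted p = 0.00646). It was among 2 of 20 chaperone genes of that compartment that passed, both higher (10%). ADM, HMOX1 and SDF2L1 passed in all 12 leave-one-out fits and after the length and GC correction. HSPB1, a small heat shock protein, also passed in all 12 (0.54, adjusted p = 0.0089) but not after the correction (0.0687). BCL2L1, an inhibitor of apoptosis, and BAD, which opposes it, were both higher (0.27 and 0.47, adjusted p = 0.018 and 0.0192), and BAD was lost after the correction (0.222). These were the 2 calls among 13 BCL2 family genes (15.4%). Leaving out WT GLUP replicate 14 or 16 or TEAD4KO GLUP replicate 14 or 15 lost both, with the highest adjusted p of 0.107 for BAD. EMC6 was the single call among 10 subunits of its complex (10%, against 5.84% of all rows), and the other 9 did not pass, with values in both directions. EMC10 had 0.30 (adjusted p = 0.0684), EMC1 -0.30 (0.0741) and EMC4 0.24 (0.098), and with the block these were at adjusted p of 0.0411, 0.0411 and 0.0388.

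Falls were few in the gene lists. INSR, the insulin receptor, was at 2.19, 1.71 and 2.15 FPKM in WT GLUP libraries and at 1.28, 0.956 and 1.36 FPKM in those labelled TEAD4KO (log2 fold change -0.46 ± 0.12, adjusted p = 0.0353). HOXA13, a homeobox factor of the distal axis, had -0.28 (adjusted p = 0.0456). Neither passed after the length and GC correction (adjusted p = 0.0789 and 0.058), and leave-one-out fits lost INSR in 6 of 12 and HOXA13 in 9, with the highest adjusted p of 0.147 and 0.184, both without WT GLUP replicate 16. Of 25 collagen, laminin and integrin genes 0 passed at adjusted p in limma. An unadjusted p under 0.05 was reached by 7 of the list and by 2679 of all 11225 rows. Still, 20 of the list lay below 0, and the median was -0.18. The list had a median transcript length of 5816 bases, against 3344 for all rows. After the length and GC correction its median was -0.08, with 19 members below 0 and 1 past the threshold as lower. Without TEAD4KO GLUP replicate 16, 7 passed as lower, where 7.34% of all rows did. Of 20 p53 target genes 0 passed in limma, with 6 below an unadjusted p of 0.05, the level that 2679 of all 11225 rows reached. HBA1, an alpha globin gene and the only tested one of 5 blood markers, was higher (33.2 ± 3.96 and 46.7 ± 3.57 FPKM, SD, n = 3; adjusted p = 0.0416) and was lost after the correction (0.304). The blood markers PTPRC, CD68 and LYZ reached at most 0.433 FPKM and CD3E was at 0 in all 12 libraries. The summed blood list was 29.1 to 36.1 FPKM in WT GLUP libraries and 42.9 to 49.7 FPKM in those labelled TEAD4KO, and its part in other results was not tested.

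The untreated libraries, which share no sample with the GLUP contrast but share its estimate of the spread, gave the same measure again. Of the 656 genes that passed under GLUP, 643 (98.0%) had the same sign in untreated libraries, as did 76.5% of all rows, and 372 passed there in the same direction, against 5.42% of all rows that passed in untreated libraries. The 372 are 56.7% of the genes past the threshold under GLUP and 61.2% of the 608 past it untreated. Of the 551 higher genes 349 passed again (63.3%, against 4.92% of all rows), and of the 105 lower genes 23 (21.9%, against 0.499%). The median log2 fold change of the higher genes was 0.41 under GLUP and 0.35 untreated, and of the lower genes -0.40 and -0.24. After the length and GC correction 116 genes passed in both treatments. Length and GC trends of the libraries ran the same way in both treatments, with a median log2 fold change of 0.14 under GLUP and 0.17 untreated in the bin of shortest genes, and their part in the repeat was not tested.

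**Figure D5:**
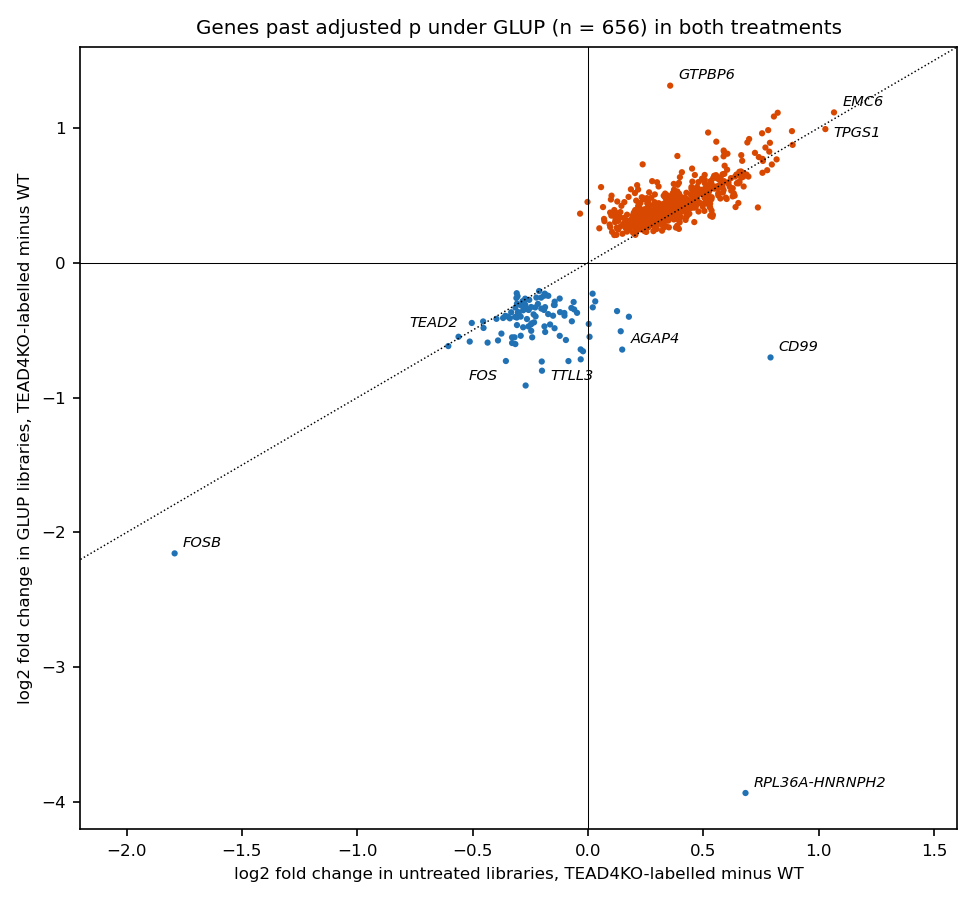
Log2 fold change in the 6 GLUP libraries against that in the 6 untreated libraries, TEAD4KO-labelled minus WT, for the 656 genes past the adjusted p under GLUP, higher in orange and lower in blue, with a dotted line of equal values. Of these, 643 have the same sign in both; RPL36A-HNRNPH2 (-3.93 under GLUP, 0.68 untreated) and CD99 (-0.70 and 0.79) lie in the opposite corner.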

How the data were processed

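RNA-seq of 12 HGC-27 libraries, 3 in each of 4 groups taken from the sample labels, was read from 1 table. The authors deposited FPKM values per Ensembl gene, and every sample column was used. The submitters' processing notes name hg19, HISAT2, Cufflinks and RSEM. Their roles, versions, the strand setting and the library totals are not given in the sources used here, and the study describes analysis on an online platform. FPKM corrects for transcript length, yet length and GC trends differed between libraries.

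Values were taken as log2(FPKM + 1), and the 11225 of 20345 rows whose mean reached 1 FPKM were fitted in limma 3.58.1 (R 4.3.3) with 4 group means and a mean-dependent prior. Tests were two-sided, every adjusted p is limma's with Benjamini-Hochberg adjustment over all rows tested, and a called gene also had a fold over 2. Symbols were found for 94.2% of rows. Positions, length and GC content came from GENCODE on GRCh37 for 96.5%. Promoters are from RefSeq. The length and GC correction removed a spline (5 degrees of freedom) in each from every library. Same-numbered GLUP libraries had correlated deviations (0.1055, 0.1517 and 0.3362, each over 0.1), so the replicate number was treated as pairing them in the block alternative. The main fit had no block. The block also paired same-numbered untreated libraries, for which no such correlation is given. Differently numbered GLUP pairs ran from -0.2453 to 0.1339, and 2 of them exceeded the 14 pair. The pairing is thus a weak hint from the data and not from the labels.

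The text names every called gene, the 10 largest rises and falls past the threshold with groups that did not overlap, up to 4 members of each list with the smallest p, genes past the interaction, and fixed TEAD genes and targets, except an item that is not reported here. Members and lists were chosen with earlier results of these data known. In simulated data, 83% of 200 genes changed 1.5-fold and 97.5% of those changed 2-fold were recovered, with 14 and 15 false calls. The simulation used independent normal noise and upward changes alone. It held no library that stood apart and no length or GC trend, so these shares may not hold for the real libraries. Alternatives were a pseudocount of 0.1, other filters, scalings, priors, weights and sample sets, summed rows, the block, the correction, and each library left out.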

Additional observations from a re-analysis of the deposited data

Results flagged for a closer look

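RPL36A-HNRNPH2 was the single row that passed the interaction of label and treatment in the main fit. Rows that did not pass were not shown to differ equally in both treatments. The flagged row is described here. The log2 fold change of RPL36A-HNRNPH2, TEAD4KO-labelled minus WT, was -3.93 under GLUP and 0.68 in untreated libraries, and the interaction of -4.62 passed in limma (adjusted p = 0.000685). It is a read-through locus that shares exons with RPL36A and HNRNPH2, so how its reads were assigned is uncertain, and the part of that assignment in the result was not tested.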

How the results depend on the processing

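The 6 called genes became 17 with a pseudocount of 0.1, 14 with array weights and 10 with the replicate block, and 6 to 26 when 1 library was left out, highest without TEAD4KO GLUP replicate 16. They became 5 with a filter at a mean of 5 FPKM or with summed rows, and 4 after the length and GC correction. The 656 genes past the adjusted p became 2487 with array weights, 1064 with the replicate block and 426 after the length and GC correction, and 196 (without WT GLUP replicate 16) to 1952 (without TEAD4KO GLUP replicate 16) over the leave-one-out fits. The 372 that also passed in untreated libraries became 597 with array weights, 116 after the correction and 97 with correction and block, and 96 to 707 over the leave-one-out fits. With the correction and TEAD4KO GLUP replicate 16 left out together, an alternative chosen after seeing the data, 20 were called, 1501 passed and 3 passed the interaction. TEAD4 fell short of the threshold under median-ratio scaling (log2 fold change 0.23), quantile normalization (0.18), without the trended prior (0.23), with the GLUP groups alone (0.23), with the block (0.23), after the correction without and with the block (0.11), and in the added alternative (0.15), and ran from 0.19 to 0.27 over the leave-one-out fits. The sign turned for CD99 when rows were summed (0.0070), for YAP1 in the added alternative (0.041) and for TEAD3 without WT GLUP replicate 14 (-0.027) or TEAD4KO GLUP replicate 16 (-0.018), in a leave-one-out range up to 0.066. The causes were not tested. With 3 libraries a group and unknown depth, small differences of low genes are the least certain.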
